A study of Mus musculus with 6 samples.

Results

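The genes described here are 40 of cyclic nucleotide signalling, chosen around cyclic AMP (cAMP) and its readout: adenylyl cyclases, stimulatory G alpha subunits, cyclic nucleotide phosphodiesterases, the subunits, inhibitors and anchors of protein kinase A (PKA), the Epac exchange factors and a pair of phosphatase inhibitors regulated by PKA. They were picked by name, by a rule that uses no measured value but was written with earlier results of these data known, from the 55471 genes of the count table, and all 40 were among the 17981 genes with enough counts to be tested. The table came from RNA-seq of the mouse hippocampus, in 3 Control and 3 CBP-ifKO samples, and the comparison asked which hippocampal transcripts depend on CBP, the lysine acetyltransferase encoded by Crebbp. CBP-ifKO mice carry floxed Crebbp alleles and the Camk2a-creERT2 transgene, whose recombinase is active in excitatory neurons of the forebrain once tamoxifen is given, so that Crebbp is ablated in the adult. Control mice were littermates that the protocol describes as lacking Cre, although 1 label field of the Control samples also names Camk2a_creERT2. Both groups received tamoxifen in 5 administrations at 20 mg/mL, were on a C57BL/6 background (C57BL/6J in the study's methods) and were 3 to 6 months old. RNA was taken about 1 month after ablation, and per the study's methods each sample pooled the hippocampi of 3 females. What limits the model is that the tissue also holds interneurons, glia and vessels that keep CBP, and that the recombined allele can still give a truncated product. In such bulk samples, fewer cells of a type and less RNA per cell cannot be told apart.

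cAMP is made from ATP by adenylyl cyclases when receptors that couple to Gs or Golf are engaged, and phosphodiesterases break it down. It releases the catalytic subunits of PKA from the regulatory subunits and activates the Epac proteins, while anchoring proteins hold PKA near its substrates. In hippocampal neurons this pathway is needed for the late, transcription-dependent phase of synaptic potentiation, in which PKA phosphorylates CREB and phosphorylated CREB recruits CBP. Many but not all of the genes below are upstream of the protein removed here in this route, and some are themselves transcribed from promoters with cAMP response elements (CREs).

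The 6 libraries held 10199008 to 14950257 counts and replicates of a gene varied with a common coefficient of variation of 6.81%. Crebbp itself was at 209, 156 and 208 CPM in Control replicates 1, 2 and 3 and at 109, 87.2 and 99.4 CPM in CBP-ifKO replicates 1, 2 and 3, or 51.5% of Control, where CPM is the read count relative to library size, in the usual per-million unit, scaled by the trimmed mean of M values (TMM). Esr1, whose ligand-binding domain is part of the creERT2 transgene, was at 6.29, 6.27 and 5.65 CPM in Control replicates 1, 2 and 3 and at 67.0, 69.4 and 63.6 CPM in CBP-ifKO replicates 1, 2 and 3, so the libraries matched their genotypes. Over all genes tested, 1149 passed an adjusted p of 0.05 in edgeR's two-sided quasi-likelihood test (6.39%), of which 897 were lower in CBP-ifKO (4.99%) and 252 higher (1.40%). Lower genes were 78.1% of the calls, and 56.5% when library totals were the only scaling. Summed levels of 6 CA1 markers ran from 92.8 to 95.1 RPKM (CPM per kilobase of exon) in Control and from 60.7 to 64.2 RPKM in CBP-ifKO, with 5 of 6 past the threshold and lower. CA2 markers (6 genes, 2 lower) ran from 68.7 to 78.9 RPKM against 49.5 to 55.0, and those of interneurons (7 genes, 2 lower) from 188 to 217 RPKM against 156 to 167. The CA3 list (6 genes, 1 lower) did not overlap between genotypes either, at 44.98 to 48.9 against 40.1 to 43.2 RPKM, nor did that of astrocytes (6 genes, none past the threshold), at 325 to 347 against 304 to 323 RPKM. With library totals as the only scaling, the summed CPM of the astrocyte list did overlap, at 97.1% of Control. Sums of the dentate, excitatory, microglial, oligodendrocyte, endothelial, choroid plexus and thalamic lists overlapped, although 2 of 8 dentate markers were lower and 2 higher past the threshold, and 1 of 4 excitatory markers was lower. The part of these shifts in the results below was not tested.

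Of the 40 cAMP and PKA genes, 6 passed the threshold, with 5 lower and 1 higher in CBP-ifKO. That is 15% of them, beside 6.39% of all genes tested, and 12.5% against 4.99% for lower and 2.5% against 1.40% for higher calls. The lower genes were Ppp1r1a and Adcy5, with the smallest p-values, and the phosphodiesterases Pde9a, Pde1a and Pde2a. Gnal, which encodes the alpha subunit of Golf, was the higher one. DESeq2 gave 5 calls and limma-voom 6, scaling by library totals only gave 4 lower and 2 higher calls, and 3 calls were left without Control replicate 3 or without CBP-ifKO replicate 3. Shifts were small: the median log2 fold change of the 40 genes was -0.10, against -0.003 over all genes tested, and 30 of the 40 were lower in sign. In 20 of the 40 genes (50%) the libraries of the genotypes did not overlap, 17 of them with all CBP-ifKO libraries lower, while 25.6% of all genes tested had no overlap. The 40 genes were also more abundant than most, with a median of 51.6 CPM against 13.8 CPM over all genes tested, and 35 of them lay above the overall median, so that their shares are not those of genes of equal precision.

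**Figure D1:**
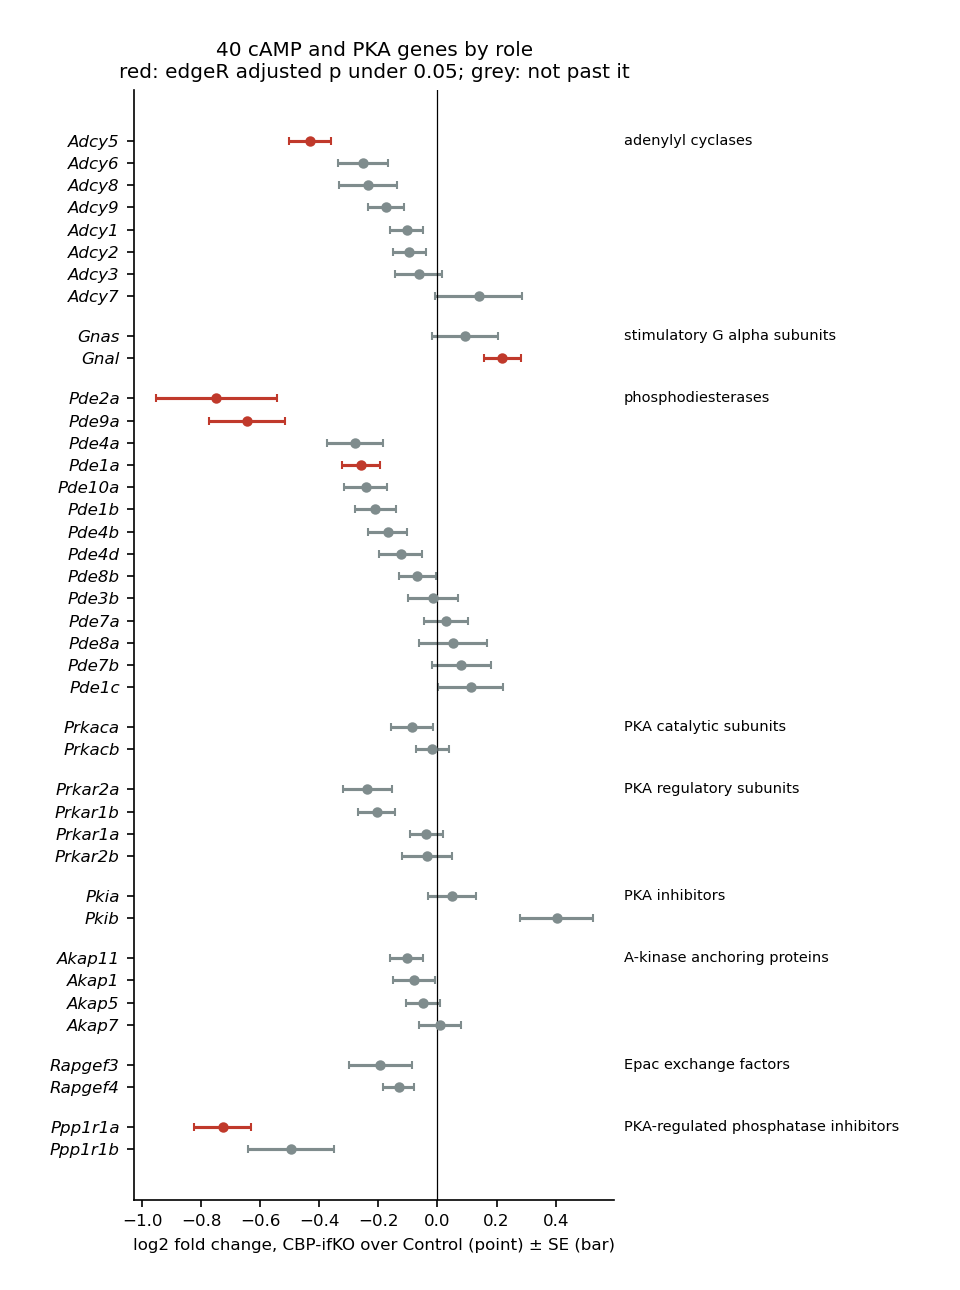
Log2 fold change of each of the 40 genes, CBP-ifKO over Control, grouped by role, with bars of 1 SE from the edgeR fit of 3 against 3 libraries; coloured points passed an adjusted p of 0.05. The 5 lower calls lie between -0.75 and -0.26 and the 1 higher call, Gnal, at 0.22, while the PKA subunits, anchors and Epac genes lie between -0.24 and 0.01 with none past the threshold.

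Because CREB binds the CRE, the promoters of these genes were searched for the octamer TGACGTCA and for its core TGACG on either strand, where each octamer also counts as a CRE core. RefSeq promoters of GRCm38.p6 (250 bases before to 50 after a start) were given for 31 of the 40 genes, in 76 windows, some of them overlapping. The octamer was in 2 of the 76 (2.63%), beside 588 of 32851 promoters in all (1.79%), and a CRE core was in 20 (26.3%), beside 6837 (20.8%). Both windows with the octamer belong to Prkar1a, overlap and hold the same site, so that site is counted more than once. Of the genes past the threshold, Adcy5, Pde1a and Pde2a had 10 windows, of which none held the octamer and 2 held a CRE core (20%). No promoter was given for Ppp1r1a, Pde9a or Gnal. The 3 windows below show the only start of Adcy5, the Pde1a start with a CRE core 166 bases upstream, and the Prkar1a start with the octamer 49 bases upstream, Prkar1a being the only one of the 31 genes with an octamer. They are written 5′ to 3′ on the strand of the gene, in lower case with octamers and CRE cores in capitals.
Adcy5 (chr16:35154614-35154913, plus strand): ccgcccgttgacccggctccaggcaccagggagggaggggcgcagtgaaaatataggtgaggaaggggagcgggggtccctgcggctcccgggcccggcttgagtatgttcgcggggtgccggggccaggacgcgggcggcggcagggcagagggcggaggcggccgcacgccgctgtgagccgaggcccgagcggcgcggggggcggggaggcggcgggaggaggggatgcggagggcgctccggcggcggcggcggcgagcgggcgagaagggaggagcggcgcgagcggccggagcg
Pde1a (chr2:80038853-80039152, minus strand): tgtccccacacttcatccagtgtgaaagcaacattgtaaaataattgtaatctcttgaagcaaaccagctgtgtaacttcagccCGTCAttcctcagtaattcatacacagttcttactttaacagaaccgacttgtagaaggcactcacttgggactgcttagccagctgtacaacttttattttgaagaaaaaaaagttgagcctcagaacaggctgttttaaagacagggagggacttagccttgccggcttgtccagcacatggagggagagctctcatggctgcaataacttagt
Prkar1a (chr11:109650699-109650998, plus strand): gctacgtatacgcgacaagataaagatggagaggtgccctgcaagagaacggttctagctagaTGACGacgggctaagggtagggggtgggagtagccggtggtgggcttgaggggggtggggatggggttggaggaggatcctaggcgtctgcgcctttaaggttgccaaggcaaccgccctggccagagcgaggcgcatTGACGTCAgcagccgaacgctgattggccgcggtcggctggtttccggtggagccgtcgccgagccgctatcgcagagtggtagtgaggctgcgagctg
A match describes letters and not a bound site, and the search says nothing of elements outside these windows. Any relation between these motifs and the calls was not tested.

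The adenylyl cyclases, which make cAMP, were lower in sign in 7 of 8 genes and 1 passed the threshold. Adcy5, a cyclase inhibited by calcium and by Gi that is best known from the striatum, was at 103, 99.4 and 98.6 CPM in Control replicates 1, 2 and 3 and at 80.9, 68.2 and 74.2 CPM in CBP-ifKO replicates 1, 2 and 3 (a log2 change of -0.43, SE 0.07, adjusted p = 0.00134). Every CBP-ifKO library lay below every Control library, and the gap of 17.7 CPM was wider than the range within either group. The means were 100.2 ± 2.14 against 74.5 ± 6.35 CPM (mean ± SD, n = 3). Its fold change stood at -0.25 with an adjusted p of 0.0353 when trends with GC content and length were removed from each library. Adcy5 (ENSMUSG00000022840) lies on chromosome 16, 35154877-35305738, plus strand (GRCm38). Crebbp lies far from it on the same chromosome, at 4081328-4213997. Beside these values, the striatal markers Drd2 and Adora2a were at 1.18 and 0.864 CPM in Control, and Six3 and Isl1 at 0.0886 and 0.0313 CPM. Drd1 averaged 5.86 CPM in Control against 4.51 CPM in CBP-ifKO and did not pass (adjusted p = 0.277), while Rgs9 rose from 13.1 to 17.8 CPM (adjusted p = 0.0221). Summed over these 6 markers the libraries ran from 20.3 to 21.9 CPM in Control and from 24.3 to 24.5 CPM in CBP-ifKO (115% of Control, and 119% with library totals only), so that the sum was higher without overlap. Most of that sum was Rgs9, the only marker of the 6 past the threshold, and the others did not share its direction. In CBP-ifKO the means of Drd1, Adora2a (0.569 CPM) and Six3 were lower than in Control, and those of Drd2 (1.49 CPM) and Isl1 (0.0493 CPM) higher. The part of striatal tissue in the values of Adcy5, and of Gnal, Pde10a and Ppp1r1b below, which are also rich in the striatum, was not tested.

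Adcy6, the closest relative of Adcy5 and likewise inhibited by calcium, had 40.1, 40.5 and 37.9 CPM in Control against 33.0, 30.4 and 36.3 CPM in CBP-ifKO and did not pass (a log2 change of -0.25, SE 0.084, adjusted p = 0.0895). Adcy1, the calmodulin-stimulated cyclase of hippocampal neurons, gave 50.7% of the summed cyclase level per length. It was at 1360.3, 1292 and 1334 CPM in Control replicates 1, 2 and 3 and at 1269.5, 1165 and 1274 CPM in CBP-ifKO replicates 1, 2 and 3 (a log2 change of -0.10, SE 0.055, adjusted p = 0.298), so its libraries did not overlap but the difference was small. Adcy9, a widely expressed cyclase that lies 73.5 kb from Crebbp on chromosome 16, had 164, 156 and 165 CPM in Control against 148, 134 and 148 CPM in CBP-ifKO (a log2 change of -0.17, SE 0.061, adjusted p = 0.105). Adcy2, stimulated by G beta-gamma, was at 175, 167 and 169 CPM in Control against 155, 159 and 164 CPM in CBP-ifKO (a log2 change of -0.10, SE 0.057, adjusted p = 0.365). In Adcy6, Adcy1, Adcy9 and Adcy2 alike the gap between genotypes was narrower than the range within CBP-ifKO, and none passed. With GC and length trends removed, Adcy9 stood at -0.06, Adcy6 at -0.16 and Adcy1 at -0.06 on the log2 scale. Adcy8, the other calmodulin-stimulated cyclase, had a log2 fold change of -0.23 (SE 0.099, adjusted p = 0.18), Adcy3 -0.06 (SE 0.079, adjusted p = 0.711) and Adcy7 0.14 (SE 0.15, adjusted p = 0.65), all with overlapping libraries. Adcy3 shares 22.1% of its exon bases with Cenpo on the other strand.

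Of the alpha subunits that stimulate cyclases, Gnal passed the threshold and was higher. Gnal encodes G alpha olf, which couples dopamine and adenosine receptors to Adcy5 in the striatum and odorant receptors to Adcy3 in the nose. It was at 110.1, 100.5 and 107 CPM in Control replicates 1, 2 and 3 and at 129, 121 and 121 CPM in CBP-ifKO replicates 1, 2 and 3 (a log2 change of 0.22, SE 0.063, adjusted p = 0.0462). Each CBP-ifKO library was above each Control library, the means being 106 ± 4.97 against 123 ± 4.60 CPM (mean ± SD, n = 3). The call was lost whichever library was left out, with adjusted p from 0.0577 without Control replicate 1 to 0.141 without CBP-ifKO replicate 1, while its log2 fold change stayed between 0.19 and 0.25. Gnal (ENSMUSG00000024524) shares 7.63% of its exon bases with Mppe1 on the other strand. Gnas, which encodes the alpha subunit of Gs and comes from an imprinted locus with several promoters, was at 13.9, 17.7 and 16.1 CPM in Control against 16.9, 17.4 and 16.6 CPM in CBP-ifKO and its libraries overlapped (a log2 change of 0.09, SE 0.11, adjusted p = 0.694). The exons of Gnas share 13.1% of their bases with Gm20721 and 8.83% with Nespas, on the other strand. Gm20721 had 0 to 1 counts in a library and Nespas 3 to 6. How reads in shared bases were assigned was not tested, so the level of Gnas is not compared with that of Gnal.

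**Figure D2:**
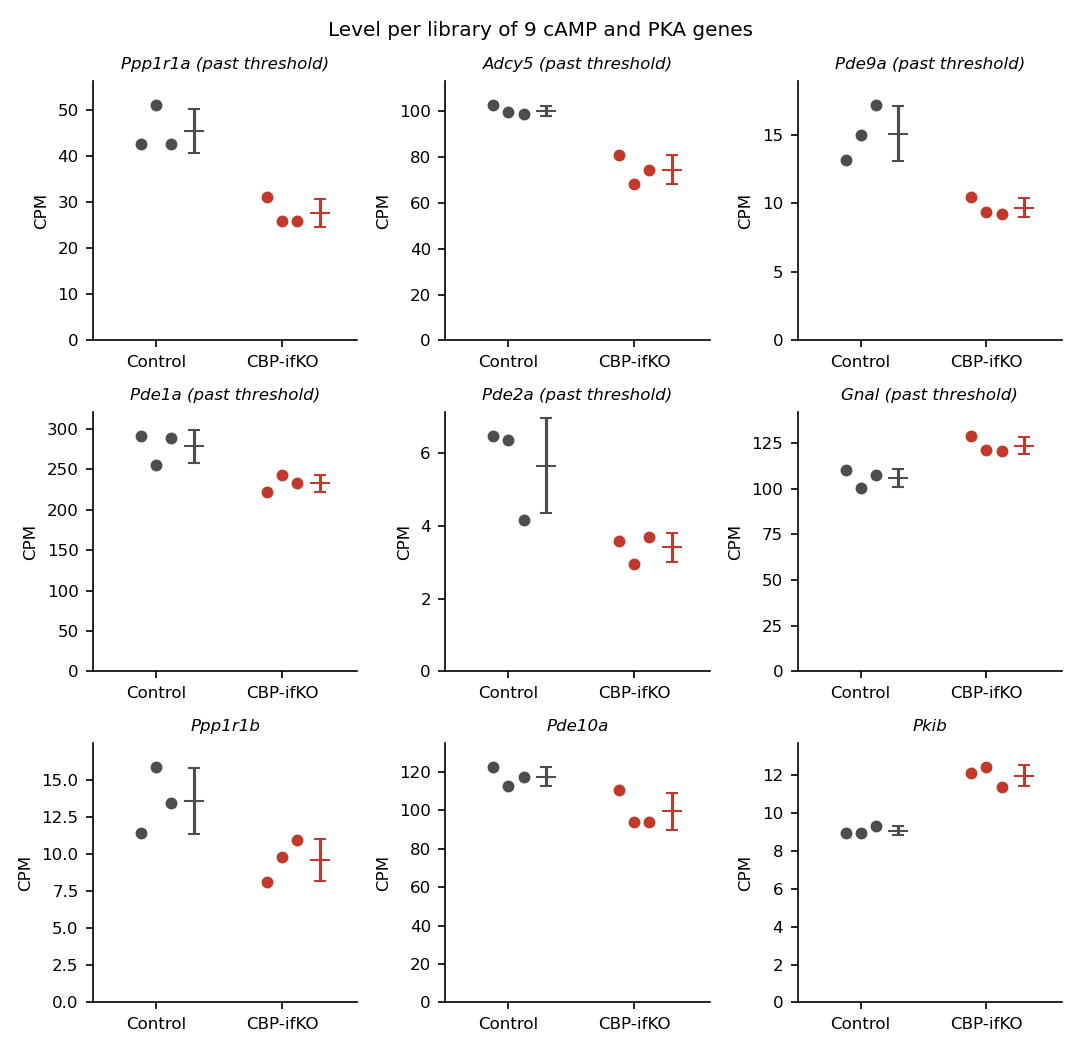
CPM (TMM-scaled) in each of the 6 libraries for the genes past the threshold or next to it, with a point for each library and, beside them, the mean of 3 with a bar of 1 SD; axes start at 0 and differ between genes. Control and CBP-ifKO points do not overlap in any panel, with CBP-ifKO higher only for Gnal and Pkib.

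Phosphodiesterases break down cAMP, cGMP or both, and 3 of 14 passed the threshold, all lower. Pde1a, a dual enzyme switched on by calcium and calmodulin, had the highest level per length of the 14, leaving aside Pde2a, whose read assignment is open. It was at 291, 255 and 289 CPM in Control replicates 1, 2 and 3 and at 222, 243 and 232 CPM in CBP-ifKO replicates 1, 2 and 3 (a log2 change of -0.26, SE 0.064, adjusted p = 0.0232). Its lowest Control library, replicate 2, was 11.5 CPM above its highest CBP-ifKO library, which is less than the range within Control. Its call was lost under scaling by library totals alone (adjusted p = 0.0578) and when any of 4 libraries was left out, namely replicate 1 (0.0817) or 3 (0.134) of Control and replicate 1 (0.0915) or 3 (0.118) of CBP-ifKO. Pde1a (ENSMUSG00000059173) lies on chromosome 2, 79834453-80129458, minus strand. Pde1b, its relative, was at 101, 115 and 101 CPM in Control against 89.2, 95.7 and 88.6 CPM in CBP-ifKO and did not pass (a log2 change of -0.21, SE 0.069, adjusted p = 0.0827). Pde1c, also switched on by calmodulin, was at 13.2, 15.3 and 15.8 CPM in Control against 15.8, 15.8 and 16.3 CPM in CBP-ifKO (a log2 change of 0.11, SE 0.11, adjusted p = 0.619), the one phosphodiesterase whose CBP-ifKO libraries all lay above Control, though by only 0.005 CPM.

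Pde9a, which is specific for cGMP rather than cAMP, was at 13.1, 14.9 and 17.2 CPM in Control replicates 1, 2 and 3 and at 10.5, 9.33 and 9.22 CPM in CBP-ifKO replicates 1, 2 and 3 (a log2 change of -0.64, SE 0.13, adjusted p = 0.00602). Its Control libraries spread from 13.1 to 17.2 CPM and all lay above CBP-ifKO, the means being 15.1 ± 2.01 against 9.67 ± 0.691 CPM (mean ± SD, n = 3). Without Control replicate 3, the highest, its adjusted p was 0.0528. Pde9a (ENSMUSG00000041119) lies on chromosome 17, 31386210-31476310, plus strand, and shares 4.44% and 3.90% of its exon bases with a pair of antisense transcripts. Pde2a, a dual enzyme stimulated by cGMP, was at 6.48, 6.36 and 4.17 CPM in Control replicates 1, 2 and 3 and at 3.59, 2.96 and 3.70 CPM in CBP-ifKO replicates 1, 2 and 3 (a log2 change of -0.75, SE 0.20, adjusted p = 0.0369). Here Control replicate 3 was close to CBP-ifKO replicate 3, and the 6 libraries held 37 to 74 counts of it. DESeq2 did not call Pde2a (adjusted p = 0.107), nor did the fit with GC and length trends (0.0587), and leaving out a library ended the call for each but Control replicate 3 (0.0697 to 0.181). Pde2a (ENSMUSG00000110195, chromosome 7, 101421691-101512827, plus strand) shares 64.3% of its exon bases with Gm45837 on the same strand, a gene with 0 to 1 counts in a library, and how reads in the shared bases were assigned was not tested.

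Pde10a, a dual enzyme rich in striatal neurons, was at 122, 113 and 117 CPM in Control against 110.5, 94.1 and 93.6 CPM in CBP-ifKO and just missed the threshold (a log2 change of -0.24, SE 0.072, adjusted p = 0.0554). All its CBP-ifKO libraries lay below Control. It passed under 7 of 17 alternatives, among them GC and length trends removed (0.0311), robust dispersions (0.0412) and no filter on low counts (0.0266). The 7 genes of the families 4, 7 and 8, which hydrolyse cAMP and not cGMP, had no call by edgeR, DESeq2 or limma-voom, and 2 of the 7 had an unadjusted p under 0.05. Over all genes tested the shares were 6.39% called by edgeR and 21.2% under the unadjusted p, so that counts this small in 7 genes are near the background. This split of the phosphodiesterases was made after their values were seen and was not tested. Pde4b, of the rolipram-sensitive family, was at 83.7, 88.3 and 89.8 CPM in Control against 81.1, 75.1 and 76.8 CPM in CBP-ifKO (a log2 change of -0.17, SE 0.065, adjusted p = 0.138), without overlap. Pde4a had a log2 fold change of -0.28 (SE 0.095, adjusted p = 0.0925) with overlapping libraries, and -0.15 with GC and length trends removed. The others overlapped too and ran from -0.12 (Pde4d) and -0.07 (Pde8b) to 0.03 (Pde7a), 0.05 (Pde8a) and 0.08 (Pde7b), with adjusted p from 0.355 to 0.878. Pde3b, a cAMP enzyme inhibited by cGMP, had -0.01 (adjusted p = 0.951). In Control, Pde2a left aside, the order of levels per length began with Pde1a, Pde1b, Pde8b, Pde10a and Pde4b, from 46.3 to 8.26 RPKM, each above the next in every library. Pde7a, Pde4a, Pde4d and Pde8a followed between 6.32 and 4.98 RPKM, and neighbours among these overlapped.

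**Figure D3:**
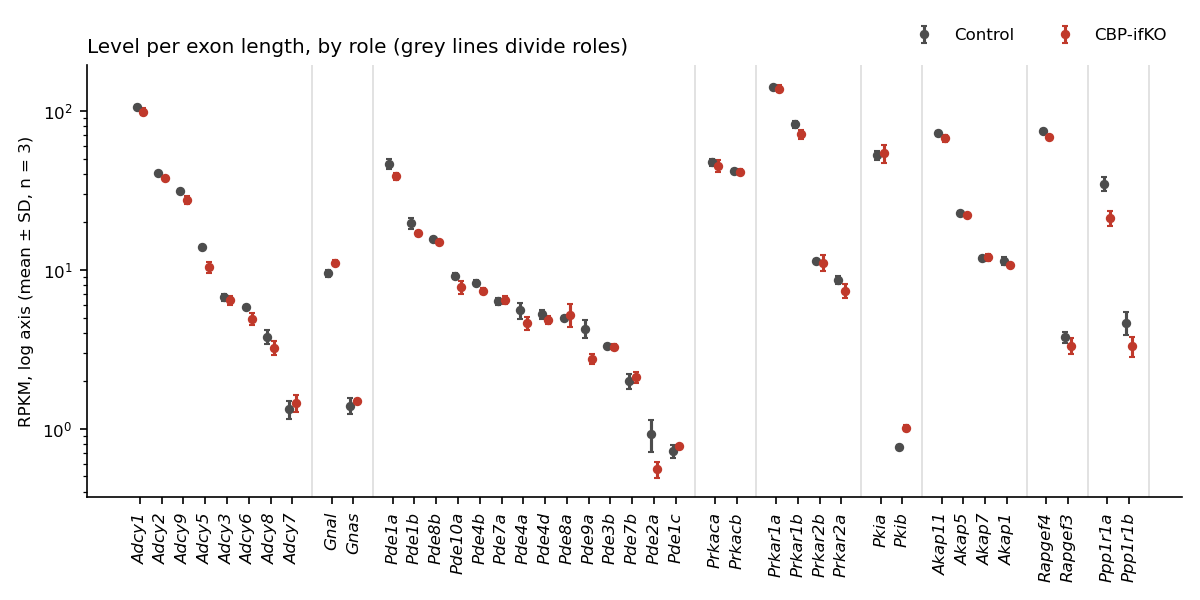
Level per length (RPKM, TMM-scaled, log axis) of the 40 genes by role, as the mean of 3 Control and of 3 CBP-ifKO libraries with bars of 1 SD. Prkar1a and Adcy1 are the highest, at 142 and 106 RPKM in Control, and Pde1c and Pkib the lowest, at 0.72 and 0.768 RPKM. Ppp1r1a is at 34.8 RPKM in Control and 21.1 RPKM in CBP-ifKO.

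None of the 6 PKA subunit genes passed the threshold. The catalytic subunits, which carry the kinase activity, were nearly level: Prkaca was at 112, 124 and 119 CPM in Control replicates 1, 2 and 3 and at 120.4, 101 and 113 CPM in CBP-ifKO replicates 1, 2 and 3 (a log2 change of -0.09, SE 0.071, adjusted p = 0.544) and Prkacb had a log2 fold change of -0.02 (SE 0.057, adjusted p = 0.914). Libraries of both genotypes overlapped for each. Prkar1a, the type I alpha regulatory subunit that binds and silences the catalytic ones, gave 58.1% of the summed regulatory level per length. It was at 604, 619 and 613 CPM in Control replicates 1, 2 and 3 and at 563, 629.6 and 595 CPM in CBP-ifKO replicates 1, 2 and 3 (a log2 change of -0.04, SE 0.056, adjusted p = 0.762), with overlap. Prkar1b, the neuronal type I subunit, was at 295, 326 and 318 CPM in Control replicates 1, 2 and 3 and at 286, 252 and 277 CPM in CBP-ifKO replicates 1, 2 and 3 and missed the threshold (a log2 change of -0.20, SE 0.063, adjusted p = 0.0634), at -0.12 with GC and length trends removed. Its libraries did not overlap, nor did those of Prkar2a, a type II subunit, at 55.6, 51.5 and 58.3 CPM in Control against 47.5, 41.9 and 51.2 CPM in CBP-ifKO (a log2 change of -0.24, SE 0.083, adjusted p = 0.103). Prkar2b, the type II subunit of neurons, overlapped, with -0.04 (SE 0.085, adjusted p = 0.863). Summed regulatory over summed catalytic RPKM was 2.74 ± 0.0467 in Control and 2.65 ± 0.184 in CBP-ifKO (SD, n = 3), a difference within the spread.

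The heat-stable inhibitors of PKA were higher in sign without a call. Pkia, with 98.6% of their summed level per length, was at 187, 210.2 and 187 CPM in Control replicates 1, 2 and 3 and at 174, 227 and 203 CPM in CBP-ifKO replicates 1, 2 and 3 (a log2 change of 0.05, SE 0.081, adjusted p = 0.8), and the CBP-ifKO libraries lay on both sides of Control. Pkib was at 8.92, 8.93 and 9.32 CPM in Control replicates 1, 2 and 3 and at 12.1, 12.4 and 11.4 CPM in CBP-ifKO replicates 1, 2 and 3 (a log2 change of 0.40, SE 0.12, adjusted p = 0.0596). All its CBP-ifKO libraries lay above Control, and with library totals as the only scaling it passed (log2 fold change 0.45, adjusted p = 0.0379). Among the anchors, Akap11, which holds PKA together with protein phosphatase 1 and GSK3, was the most abundant at 61% of the sum. It had 820.2, 774 and 784 CPM in Control against 704, 774 and 735 CPM in CBP-ifKO (a log2 change of -0.10, SE 0.056, adjusted p = 0.307), with CBP-ifKO replicate 2 only just below the lowest Control. Akap5, the anchor of the postsynaptic density, Akap1, of the mitochondrial outer membrane, and Akap7, linked to calcium channels, had log2 fold changes of -0.05, -0.08 and 0.01 with overlapping libraries and adjusted p from 0.579 to 0.962. Rapgef4, the neuronal Epac and 95.2% of the Epac sum, was at 488, 507 and 505 CPM in Control against 463, 453 and 454 CPM in CBP-ifKO without overlap (a log2 change of -0.13, SE 0.053, adjusted p = 0.157). Rapgef3, the other Epac gene, had -0.19 (SE 0.11, adjusted p = 0.324). Over these anchors, inhibitors, Epac genes and the PKA subunits, 14 genes in all, edgeR called 0, as did DESeq2 and limma-voom. These were grouped after their values were seen, as the roles without a call. The 0 of edgeR was thus set by the grouping and is not weighed against the 6.39% of all genes tested. At an unadjusted p under 0.05 there were 4 of the 14, beside 3816 of all 17981 genes (21.2%), both near the background for 14 genes.

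The phosphatase inhibitors, which block protein phosphatase 1 once PKA has phosphorylated them, stood furthest from Control as a summed role. Ppp1r1a, which encodes inhibitor-1, was at 42.6, 51.0 and 42.5 CPM in Control replicates 1, 2 and 3 and at 31.1, 25.8 and 25.8 CPM in CBP-ifKO replicates 1, 2 and 3 (a log2 change of -0.73, SE 0.097, adjusted p = 3.06e-04). The highest CBP-ifKO library was 11.4 CPM below the lowest Control library, and the means were 45.4 ± 4.87 against 27.6 ± 3.05 CPM (mean ± SD, n = 3), or 60.8% of Control. It kept its call under every alternative and without any 1 library, with log2 fold changes from -0.82 to -0.62. Adcy5 was the only other of the 40 genes to do so. Ppp1r1a (ENSMUSG00000022490) lies on chromosome 15, 103530279-103538003, minus strand, 226 bases from the end of Pde1b, which is transcribed toward it. Ppp1r1b, which encodes DARPP-32, the striatal counterpart of inhibitor-1, was at 11.5, 15.9 and 13.5 CPM in Control replicates 1, 2 and 3 and at 8.14, 9.79 and 10.9 CPM in CBP-ifKO replicates 1, 2 and 3. All its CBP-ifKO libraries were below Control, yet it missed the threshold (a log2 change of -0.49, SE 0.15, adjusted p = 0.0531) and stood at -0.29 (adjusted p = 0.189) with GC and length trends removed. It passed under 4 of 17 alternatives, among them robust dispersions (0.0406), no filter on low counts (0.0149) and without Control replicate 1 (0.0229). The exons of Ppp1r1b share 15.7% of their bases with 1700003D09Rik on the other strand. Ppp1r1a and Pde1a are also on the study's own list of genes lower in its screens, to which these libraries belong, so that list is not independent evidence of their direction.

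**Figure D4:**
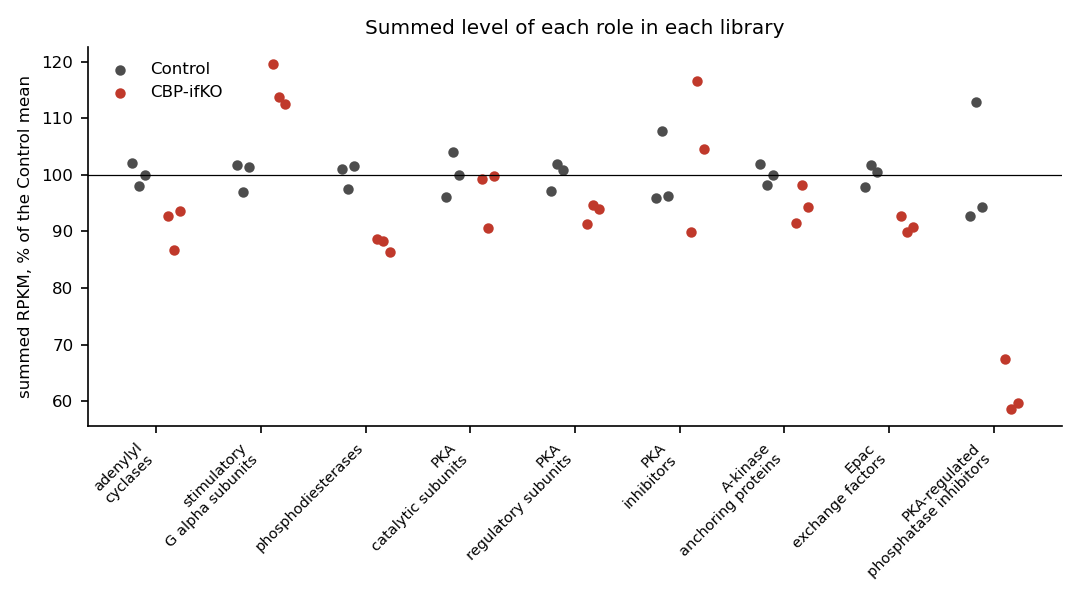
Summed level per length (RPKM) of each role in each library as a percentage of the Control mean, with a point for each of 3 Control and 3 CBP-ifKO libraries. The phosphatase inhibitors are at 62% of Control, the stimulatory G alpha subunits at 115%, and the other roles between 87.8% and 104%.

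Summed over a role, the phosphatase inhibitors ran from 36.5 to 44.5 RPKM in Control and from 23.1 to 26.6 RPKM in CBP-ifKO, 62% of Control. Adenylyl cyclases ran from 205 to 214 RPKM against 181 to 196 RPKM (91.1%), and phosphodiesterases from 129 to 134 against 114 to 117 RPKM (87.8%), both without overlap. The phosphodiesterase sum, here and in the ratio below, includes Pde2a, whose read assignment is open. Regulatory subunits were at 93.4%, Epac genes at 91.2% and anchors at 94.6% of Control, again without overlap, although the anchors overlapped when library totals were the only scaling. The catalytic subunits at 96.5% and the PKA inhibitors at 104% overlapped. The stimulatory G alpha subunits were at 115%, with no overlap, a sum in which the read assignment of Gnas is open. The enzymes that make and those that remove cyclic nucleotides were both lower in sum. The summed cyclases over the summed phosphodiesterases were 1.58 ± 0.0218 in Control and 1.64 ± 0.0822 in CBP-ifKO (SD, n = 3), a difference within the spread.

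Of 60 other genes of the pathway, listed by function, 50 were tested and 8 passed (16%), 6 lower and 2 higher, beside 6.39% of all genes. In 19 of the 50 (38%) the genotypes did not overlap, beside 25.6%. Receptors that couple to Gs, the entry to the pathway, held 5 of the 8 among 18 tested of 22, with 4 lower and 1 higher. Of these 18, 16 were lower in sign, with a median log2 fold change of -0.38. Htr4, a serotonin receptor, was at 36.3, 35.1 and 37.6 CPM in Control against 25.5, 23.2 and 22.5 CPM in CBP-ifKO (a log2 change of -0.62, SE 0.086, adjusted p = 3.92e-04). Crhr1, the main receptor for corticotropin-releasing hormone, was at 8.07, 6.79 and 7.74 CPM in Control against 5.14, 3.75 and 4.86 CPM in CBP-ifKO (a log2 change of -0.73, SE 0.17, adjusted p = 0.0152). Mc4r, a melanocortin receptor, was at 6.10, 5.41 and 5.45 CPM in Control against 3.49, 3.42 and 3.54 CPM in CBP-ifKO (a log2 change of -0.70, SE 0.17, adjusted p = 0.0219). For each of these receptors, the highest CBP-ifKO library lay under the lowest of Control. Adrb1, the beta-1 adrenergic receptor, was at 10.1, 10.4 and 8.23 CPM in Control against 7.17, 5.52 and 7.24 CPM in CBP-ifKO (a log2 change of -0.55, SE 0.16, adjusted p = 0.0454). DESeq2 called neither Mc4r (adjusted p = 0.105) nor Adrb1 (0.126), and Adrb1 lost its call without any 1 library (0.0528 to 0.23) and under 12 of 17 alternatives in all. Mc4r lost its call without any library but Control replicate 2 (0.0528 to 0.0982), and Crhr1 without Control replicate 3 (0.0632) or CBP-ifKO replicate 2 (0.11).

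Drd5, a dopamine receptor of the hippocampus, went the other way, at 9.67, 10.05 and 10.3 CPM in Control against 14.4, 17.4 and 14.1 CPM in CBP-ifKO (a log2 change of 0.62, SE 0.12, adjusted p = 0.00602). Of its exon bases, 48.6% are shared with Gm26560 on the other strand. Of 7 other cyclases and G alpha subunits 1 passed: Gnaz, whose product inhibits cyclases, was at 77.3, 82.6 and 75.8 CPM in Control against 54.8, 54.5 and 64.1 CPM in CBP-ifKO (a log2 change of -0.44, SE 0.076, adjusted p = 0.00196). Among 7 tested of 10 other phosphodiesterases, Pde11a, a dual enzyme found in the hippocampus, passed and was at 26.1, 26.5 and 30.5 CPM in Control against 19.0, 21.5 and 20.2 CPM in CBP-ifKO (a log2 change of -0.45, SE 0.098, adjusted p = 0.0106). Its call was lost without Control replicate 3 (0.0905) or CBP-ifKO replicate 3 (0.0592). Of 10 tested of 12 other inhibitors and anchors, Akap8, a nuclear anchor, was at 112, 118 and 112 CPM in Control against 141, 129 and 131 CPM in CBP-ifKO (a log2 change of 0.23, SE 0.061, adjusted p = 0.0342). Akap8 lost its call without any library but Control replicate 2 (0.0522 to 0.151). The 8 tested of 9 other cAMP effectors and PKA targets had 0 calls by edgeR and DESeq2 and 1 at an unadjusted p under 0.05. Values of Gnaz and Pde11a did not overlap between genotypes, with CBP-ifKO lower, and those of Drd5 and Akap8 did not overlap with CBP-ifKO higher.

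**Figure D5:**
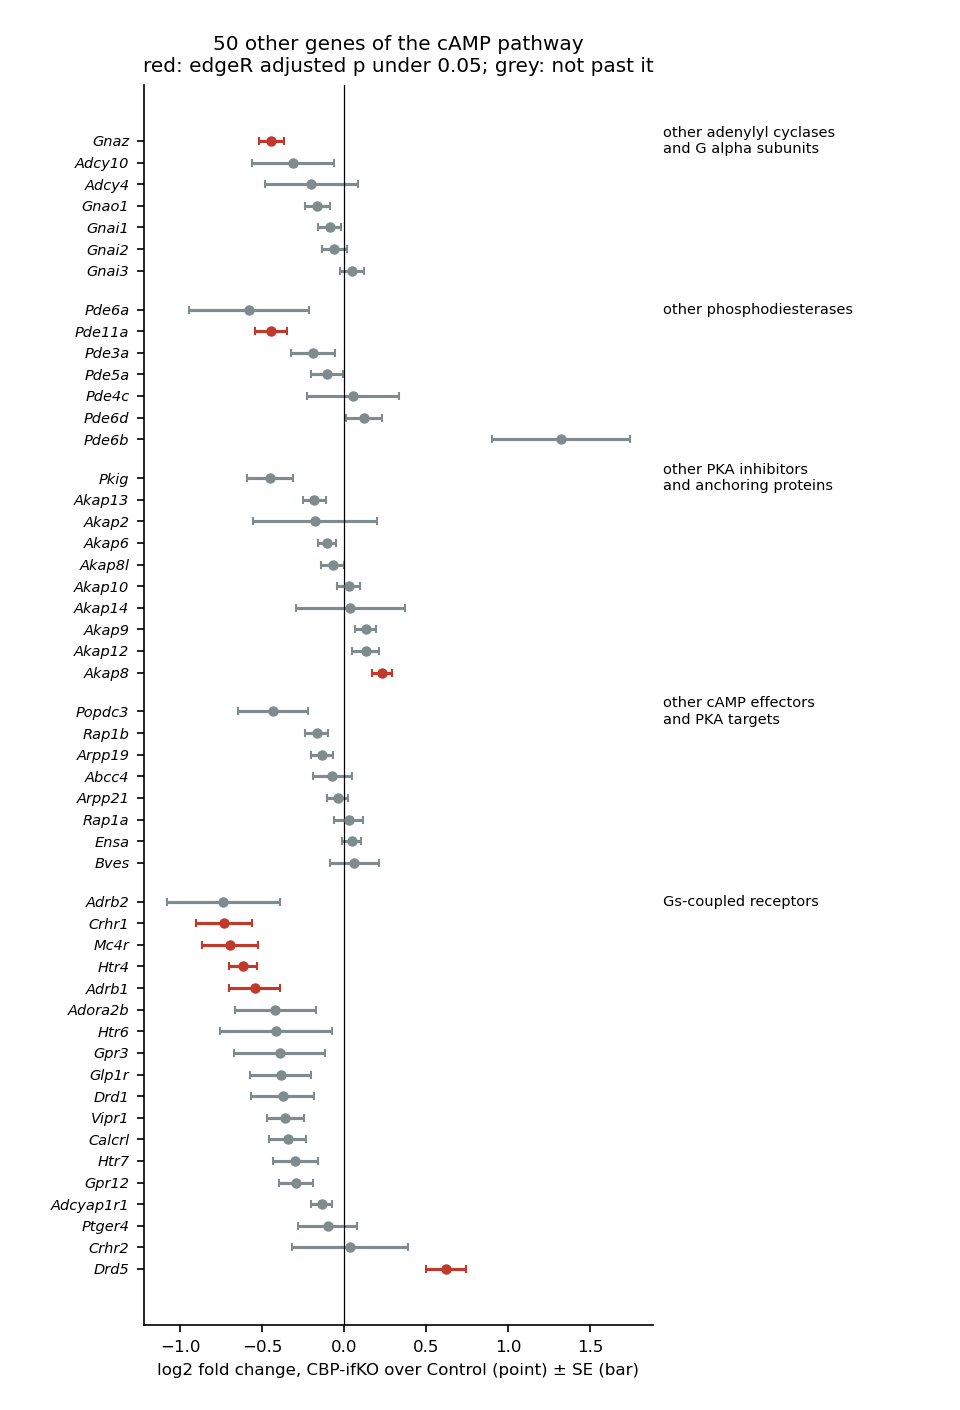
Log2 fold change, CBP-ifKO over Control, of the 50 tested of 60 other genes of the pathway, grouped by list, with bars of 1 SE from the edgeR fit; coloured points passed an adjusted p of 0.05. Of 18 receptors coupled to Gs, 16 lie below 0, and the calls are Htr4, Crhr1, Mc4r, Adrb1, Gnaz and Pde11a below 0 and Drd5 and Akap8 above.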

How the data were processed

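Total RNA from mouse hippocampus was sequenced in 3 Control and 3 CBP-ifKO samples, single-end with reads of 50 bp per the labels. The authors trimmed adapters with Trim Galore (0.6.4), checked reads with FastQC (0.11.8), aligned them to GRCm38 with STAR (2.6.1), removed poorly mapped reads and used Rsubread to count the remainder over Ensembl exons. They deposited the unnormalized counts of each gene together with its length. The use of strand in counting is not given in the sources used here.

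From these counts, edgeR (4.0.16, R 4.3.3) was run with TMM scaling, filterByExpr (minimum count 10, minimum total 15), genotype as the only term, the quasi-likelihood F-test and Benjamini-Hochberg adjustment over 17981 genes. The threshold was an adjusted p of 0.05. The SE of a log2 fold change is its size over the square root of F. CPM are TMM-scaled, and RPKM are these per kilobase of the deposited length. DESeq2 (1.42.0), which the study used, and limma-voom (limma 3.58.1) were alternatives, as were other scalings and filters, robust dispersions, the replicate number as a block, offsets for GC content and length (natural splines, 5 degrees of freedom) and leaving out each library. Symbols came from GENCODE of GRCm38, which matched 55230 of 55471 identifiers (99.57%), and promoters from RefSeq. No protein sequences were used here. The sum of the striatal markers is given over 6 genes.

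Of the 40 genes, those past the threshold, the most abundant of a role by level per length and those without overlap between genotypes are given in every library, and the others by fold change. Of the other pathway genes, those past the threshold are named. The members and lists were chosen with earlier results of these data known. Libraries of 1 genotype were not duplicates of each other within counting noise, and p-values measure the spread between pooled samples.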

Additional observations from a re-analysis of the deposited data

How the results depend on the processing

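The 6 calls among the 40 genes were 5 with DESeq2, 9 with robust dispersions or without the filter on low counts (gaining Pde10a, Ppp1r1b and Prkar1b) and 6 under the other scalings, the stricter filter, limma-voom, and GC and length offsets. Leaving out 1 library gave 3 to 6 calls of the 40, 3 to 8 of the other pathway genes, and, for genes called over the whole table, 498 to 1326: 546 without Control replicate 3 and, of CBP-ifKO, 498 without replicate 2 and 526 without replicate 3. Replicate numbers did not pair the samples (correlations of deviations 0.077, 0.037 and 0.0022). With the replicate block, 8 of the 40 genes, 8 other pathway genes and 1210 genes in all were called (gaining Pde10a and Ppp1r1b, and losing Adrb1 at an adjusted p of 0.0575), and with the replicate block plus GC and length offsets 11, 14 and 1856. The share of calls that were lower was 78.1%, and 56.5% with library totals only. Of 850 values of single genes under an alternative, 758 kept direction and call, 46 lost a call, 20 gained 1 and 26 changed sign, none of them of a called gene. With library totals only, the log2 fold change was 0.031 for Pde3b, 0.029 for Prkacb, 0.008 for Prkar1a and 0.010 for Prkar2b. With GC and length offsets it was 0.054 for Adcy3, -0.010 for Pde7a, -0.039 for Pkia and -0.065 for Akap7, and with the replicate block added 0.055, -0.012, -0.042 and -0.067. The cause was not tested. Leaving out 1 library moved it across 0 for 8 genes, with -0.051 to 0.018 for Pde3b, -0.014 to 0.067 for Pde7a, -0.073 to 0.166 for Pde8a, -0.044 to 0.016 for Prkacb, -0.073 to 0.001 for Prkar1a, -0.119 to 0.036 for Prkar2b, -0.041 to 0.141 for Pkia and -0.032 to 0.039 for Akap7. Pde2a rested on 37 to 74 counts in a library, with an SE of 0.20 on the log2 scale.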
